A study of Homo sapiens with 4 samples.

Results

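The IL-12 family genes described here are 8 of the 19775 genes that the array annotation names: the cytokine subunit genes EBI3, IL27, IL23A, IL12A and IL12B, and the receptor genes IL27RA, IL6ST and IL12RB1. They were chosen by symbol, and every probe set annotated to 1 of these genes alone was used, 21 of 41097 such probe sets. RNA came from THP-1, a human monocytic leukemia line, in a subline expressing Siglec-14 (a stand-in for monocytes with an intact SIGLEC14 gene) and a subline expressing Siglec-5 (a stand-in for SIGLEC14-null monocytes). The sources used here do not say whether a subline is 1 clone or a pool. Each subline was kept for 6 h in serum-free macrophage medium with heat-killed nontypeable Haemophilus influenzae (NTHi) at an MOI of 100, or without bacteria, which gives the samples Siglec-14,NTHi[+], Siglec-14,NTHi[−], Siglec-5,NTHi[+] and Siglec-5,NTHi[−]. Each sample was hybridized to 1 Affymetrix U133 Plus 2.0 array, so there are no replicates, no value has an error of its own, and a pair of arrays cannot be tested.

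The cytokines of this family are heterodimers that share subunits. A helical alpha chain pairs with a beta chain that resembles a soluble receptor: IL12A with IL12B gives IL-12, IL23A with IL12B gives IL-23, IL27 with EBI3 gives IL-27, and IL12A with EBI3 gives IL-35. Myeloid antigen-presenting cells make IL-12, IL-23 and IL-27 in response to microbes, and T and NK cells are their best known targets. IL12RB1 is the receptor chain common to IL-12 and IL-23, IL27RA is the chain specific to IL-27, and IL6ST (gp130) is the chain that IL-27 shares with IL-6.

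Signals are linear hybridization intensities. A signal under 16.02, the median of all signals on the 4 arrays, was taken as not distinguishable from background, and this value is called the floor. A fold against a signal below the floor was computed against the floor and is given as "at least". Where a gene had more than 1 probe set, the one with the highest mean signal stands for it and is called its main probe set. The array medians lay between 15.1 and 16.5. Of 10 monocytic marker genes, 8 were matched and 6 were at or above the floor on every array, among them LYZ (3036 to 3430) and ELANE (7512 to 8554), while CD14 and FCGR1A were below it on all 4. The summed signal of the T cell list (5 of 5 genes matched, none above 56.4 on any array) was 63.3 in Siglec-14,NTHi[+], 62.4 in Siglec-14,NTHi[−], 111 in Siglec-5,NTHi[+] and 92.5 in Siglec-5,NTHi[−]. The sum of the dendritic cell list (4 of 5 matched) was 282 and 214 in Siglec-14,NTHi[+] and Siglec-14,NTHi[−], against 192 and 253 in Siglec-5,NTHi[+] and Siglec-5,NTHi[−]. Only 2 of its genes reached the floor on any array, and they ordered the lines oppositely. In the same order of arrays, LAMP3 had 150 and 84.9 against 29.0 and 37.6, and CCR7 had 116 and 116 against 148 and 208. No probe set was annotated to SIGLEC14 alone, and that of SIGLEC5 read 19.5, 21.3, 21.6 and 4.13 in the order Siglec-14,NTHi[+], Siglec-14,NTHi[−], Siglec-5,NTHi[+] and Siglec-5,NTHi[−], so the arrays did not check the labels of the lines. In bulk RNA of this kind, fewer cells that express a gene and less RNA per cell cannot be told apart.

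EBI3, the beta subunit of IL-27, differed in every comparison. Its only probe set had a signal of 650.3 in Siglec-14,NTHi[+] and 171 in Siglec-14,NTHi[−], and of 108 in Siglec-5,NTHi[+] and 2.50 in Siglec-5,NTHi[−]. Cells given NTHi thus had the higher signal in both lines, and stimulated Siglec-5/THP-1 stayed below nonstimulated Siglec-14/THP-1. The ratio of NTHi[+] to NTHi[−] was 3.80 in Siglec-14/THP-1 and at least 6.74 in Siglec-5/THP-1. The ratio in Siglec-14/THP-1 ranked 10 of 13210 from the top among all genes measured, and the bound in Siglec-5/THP-1 has no rank. On the linear scale the difference was 479 units in Siglec-14/THP-1 and 105.5 units in Siglec-5/THP-1. Between the lines, the ratio of Siglec-14/THP-1 to Siglec-5/THP-1 was 6.02 with NTHi and at least 10.7 without (the ratio with NTHi ranked 55 of 13099). EBI3 is among the genes that the study selected on these same arrays, so its size of change is a description.

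IL27 encodes the alpha subunit, p28, without which EBI3 cannot form IL-27. Its probe set stayed below the floor on all 4 arrays, with 1.78 in Siglec-14,NTHi[+], 13.0 in Siglec-14,NTHi[−], 8.39 in Siglec-5,NTHi[+] and 14.3 in Siglec-5,NTHi[−]. Transcript of IL27 was therefore not detectable by this probe set in either line at 6 h, and no fold is given.

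IL23A, the p19 subunit of IL-23, had its highest signal in stimulated Siglec-14/THP-1. The main probe set had 395 in Siglec-14,NTHi[+] and 114 in Siglec-14,NTHi[−], and 172 in Siglec-5,NTHi[+] and 105 in Siglec-5,NTHi[−]. The nonstimulated arrays lay close to each other, at a ratio of 1.09 of Siglec-14/THP-1 to Siglec-5/THP-1, whereas the stimulated arrays stood 2.30-fold apart. NTHi was accompanied by a 3.46-fold higher signal in Siglec-14/THP-1 and a 1.65-fold higher one in Siglec-5/THP-1. On the log2 scale the response of Siglec-14/THP-1 minus that of Siglec-5/THP-1 was 1.07, against a median of 0.20 and an SD of 0.23 over 7852 genes, where IL23A ranked 12 from the top. That difference rests on single arrays and was not tested. Another 3 probe sets are listed for IL23A and were used as annotated, without a check of their sequences. The brightest of them, also highest in Siglec-14,NTHi[+], had 23.6 in Siglec-14,NTHi[+] and 3.38 in Siglec-14,NTHi[−], and 20.1 in Siglec-5,NTHi[+] and 7.03 in Siglec-5,NTHi[−]. The next was above the floor only in Siglec-14,NTHi[−], at 17.6, and the last on no array. One further probe set, annotated to both IL23A and the T cell receptor segment TRBV19, was not used, and its highest signal was 7.83.

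IL12B, the p40 subunit that IL-12 and IL-23 share, was dim. Its signal was 23.8 in Siglec-14,NTHi[+] and 3.30 in Siglec-14,NTHi[−], and 16.3 in Siglec-5,NTHi[+] and 10.8 in Siglec-5,NTHi[−]. Both stimulated arrays were above the floor and both nonstimulated arrays below it, which gives at least 1.49-fold with NTHi in Siglec-14/THP-1 and at least 1.02-fold in Siglec-5/THP-1. IL12A, the p35 subunit of IL-12 and IL-35, had 6.81 in Siglec-14,NTHi[+] and 15.2 in Siglec-14,NTHi[−], and 8.15 in Siglec-5,NTHi[+] and 18.5 in Siglec-5,NTHi[−]. It reached the floor on that last array alone.

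**Figure D1:**
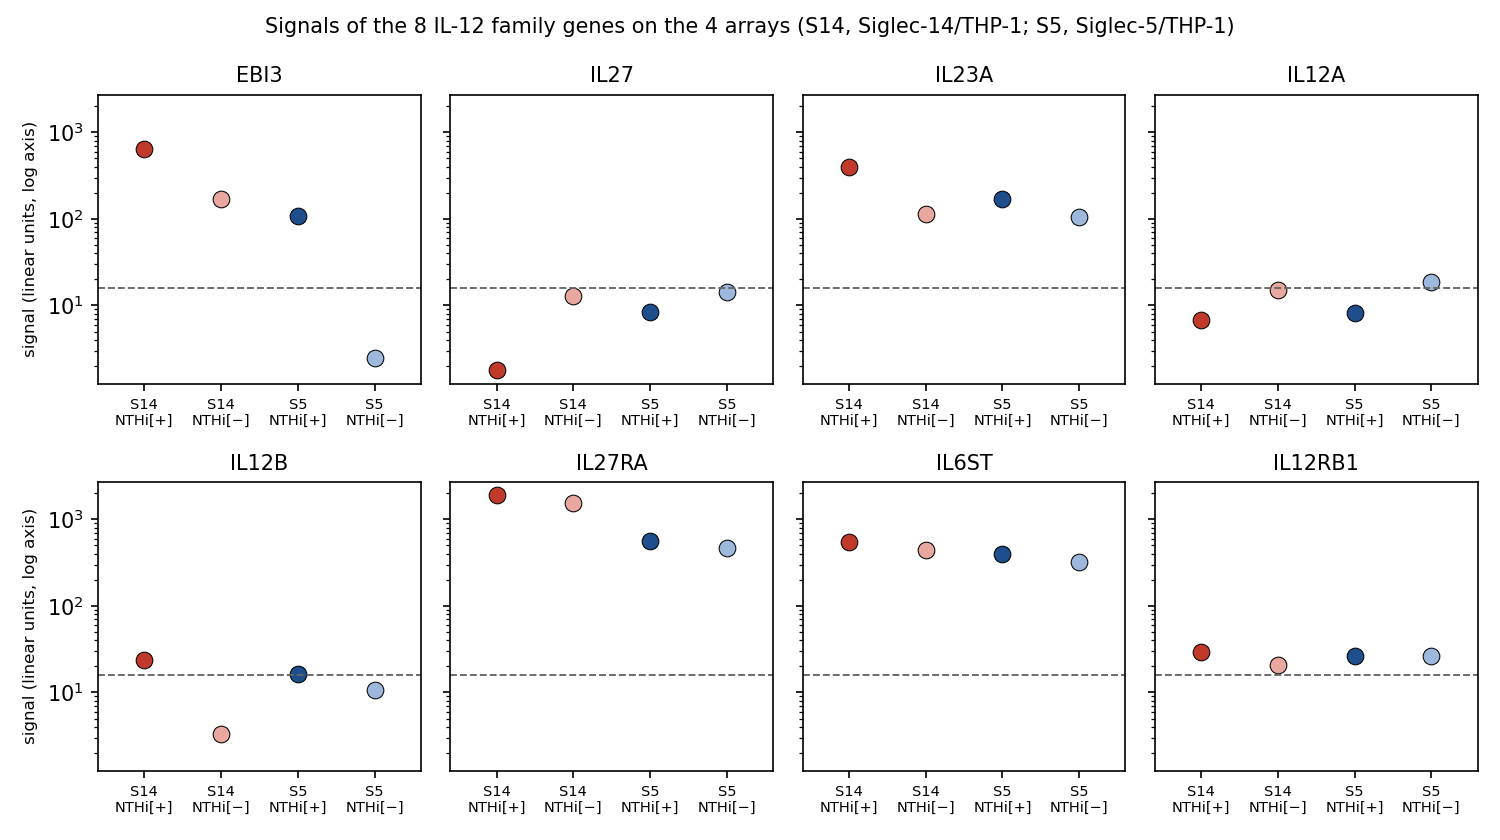
Signal of the main probe set of each of the 8 genes (y axis, linear units on a log axis) on the 4 arrays (x axis, 1 point per array), with the floor of 16.02 dashed. EBI3 and IL23A are highest in Siglec-14,NTHi[+] at 650.3 and 395, IL27 lies under the floor on every array, and IL27RA is higher on both Siglec-14/THP-1 arrays than on either Siglec-5/THP-1 array.

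The stretches of 250 bases before the RefSeq start (GRCh38.p14) are shown for EBI3 and IL23A, which were higher with NTHi, and for IL27RA, which differed between the lines. Capitals mark exact matches to the κB motif of NF-κB, to the AP-1 motif TGAGTCA or to the PU.1 core GAGGAA, searched on both strands. The κB motif was GGGRNWYYCC, where R is A or G, N any base, W is A or T and Y is C or T.
EBI3, chr19:4229273-4229522, plus strand: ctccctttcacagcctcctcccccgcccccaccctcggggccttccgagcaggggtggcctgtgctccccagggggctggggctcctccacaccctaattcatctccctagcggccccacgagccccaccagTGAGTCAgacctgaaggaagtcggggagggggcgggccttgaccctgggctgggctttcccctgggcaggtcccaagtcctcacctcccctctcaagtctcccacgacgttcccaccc
IL23A, chr12:56338634-56338883, plus strand: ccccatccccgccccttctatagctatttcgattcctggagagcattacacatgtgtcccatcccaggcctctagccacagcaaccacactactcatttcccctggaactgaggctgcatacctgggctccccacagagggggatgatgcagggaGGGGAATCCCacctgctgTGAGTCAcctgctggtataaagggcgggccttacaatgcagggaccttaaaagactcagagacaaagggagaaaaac
IL27RA, chr19:14031512-14031761, plus strand: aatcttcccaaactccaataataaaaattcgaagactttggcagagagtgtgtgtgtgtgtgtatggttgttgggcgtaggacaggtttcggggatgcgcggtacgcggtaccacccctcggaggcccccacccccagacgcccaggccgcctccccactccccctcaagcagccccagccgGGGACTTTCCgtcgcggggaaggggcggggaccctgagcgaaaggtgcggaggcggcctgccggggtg

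EBI3 held 1 match to the AP-1 motif, 118 to 112 bases before the start, and no exact match to the others. Near matches were not counted for any gene. IL23A held a κB match at 95 to 86 bases, read on both strands, and an AP-1 match at 77 to 71 bases. IL27RA held 1 κB match at 68 to 59 bases. The marked matches do not overlap each other. Of the remaining members with a sequence in the table, IL12A held 1 κB match, IL12B and IL12RB1 1 PU.1 core each, and IL6ST none of the 3 motifs. Over 35116 promoter stretches of this length, 5.21% held the κB motif, 4.20% the AP-1 motif and 23.6% the PU.1 core. These are matches of letters and were not measured as binding.

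IL27RA, the receptor chain that recognises IL-27, separated by cell line. Its main probe set had 1905 in Siglec-14,NTHi[+] and 1552 in Siglec-14,NTHi[−], and 560.4 in Siglec-5,NTHi[+] and 464 in Siglec-5,NTHi[−]. Both Siglec-14/THP-1 arrays were far above both Siglec-5/THP-1 arrays, at 3.40-fold with NTHi and 3.35-fold without. A second probe set gave the same order with smaller ratios, with 424 in Siglec-14,NTHi[+] and 359 in Siglec-14,NTHi[−], and 184 in Siglec-5,NTHi[+] and 150.4 in Siglec-5,NTHi[−]. Those signals were 2.30-fold higher in Siglec-14/THP-1 with NTHi and 2.39-fold higher without. Its other probe set was below the floor on all 4 arrays. With NTHi, the main probe set read 1.23-fold in Siglec-14/THP-1 and 1.21-fold in Siglec-5/THP-1, which on the log2 scale is 0.30 and 0.27. For scale, the log2 NTHi ratio of bright genes had an SD of 0.20 in Siglec-14/THP-1 (7682 genes) and of 0.20 in Siglec-5/THP-1 (7561 genes).

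IL6ST, the signalling chain gp130, differed less between the lines than IL27RA did. The main probe set had 547 in Siglec-14,NTHi[+] and 443 in Siglec-14,NTHi[−], and 400.5 in Siglec-5,NTHi[+] and 321 in Siglec-5,NTHi[−]. Siglec-14/THP-1 thus read 1.37-fold and 1.38-fold over Siglec-5/THP-1 with and without NTHi, log2 ratios of 0.45 and 0.47, where bright genes had an SD of 0.36 and 0.34. The next probe set had 109.9 in Siglec-14,NTHi[+] and 73.4 in Siglec-14,NTHi[−], and 78.5 in Siglec-5,NTHi[+] and 73.3 in Siglec-5,NTHi[−]. It set only the stimulated Siglec-14/THP-1 array apart. Of the 5 remaining IL6ST probe sets, 3 reached the floor on at least 1 array, none above 31.0, and 2 on no array.

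IL12RB1, the receptor chain for IL-12 and IL-23, stayed close to the floor. The main probe set had 29.7 in Siglec-14,NTHi[+] and 20.9 in Siglec-14,NTHi[−], and 26.4 in Siglec-5,NTHi[+] and 26.5 in Siglec-5,NTHi[−]. Of the 4 comparisons, the ratio farthest from 1 was the 1.42 of NTHi[+] to NTHi[−] in Siglec-14/THP-1. Of the T cell list, CD3E was below the floor on all 4 arrays, while the other 4 genes reached it on at least 1. CD247, which T and NK cells share, had 26.4 in Siglec-14,NTHi[+] and 16.6 in Siglec-14,NTHi[−], and 38.7 in Siglec-5,NTHi[+] and 56.4 in Siglec-5,NTHi[−]. The NK cell list (4 of 4 matched) summed to 438, 368, 325 and 331 in Siglec-14,NTHi[+], Siglec-14,NTHi[−], Siglec-5,NTHi[+] and Siglec-5,NTHi[−]. Most of the NK sum was NKG7, at 363 in Siglec-14,NTHi[+], and KLRD1 was below the floor on all 4 arrays. All 4 samples were cultured THP-1 sublines, so the T and NK cell lists describe RNA of that line. What sets the signal of IL12RB1 was not tested. A second probe set lay between 14.3 and 18.9 and another stayed below the floor.

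**Figure D2:**
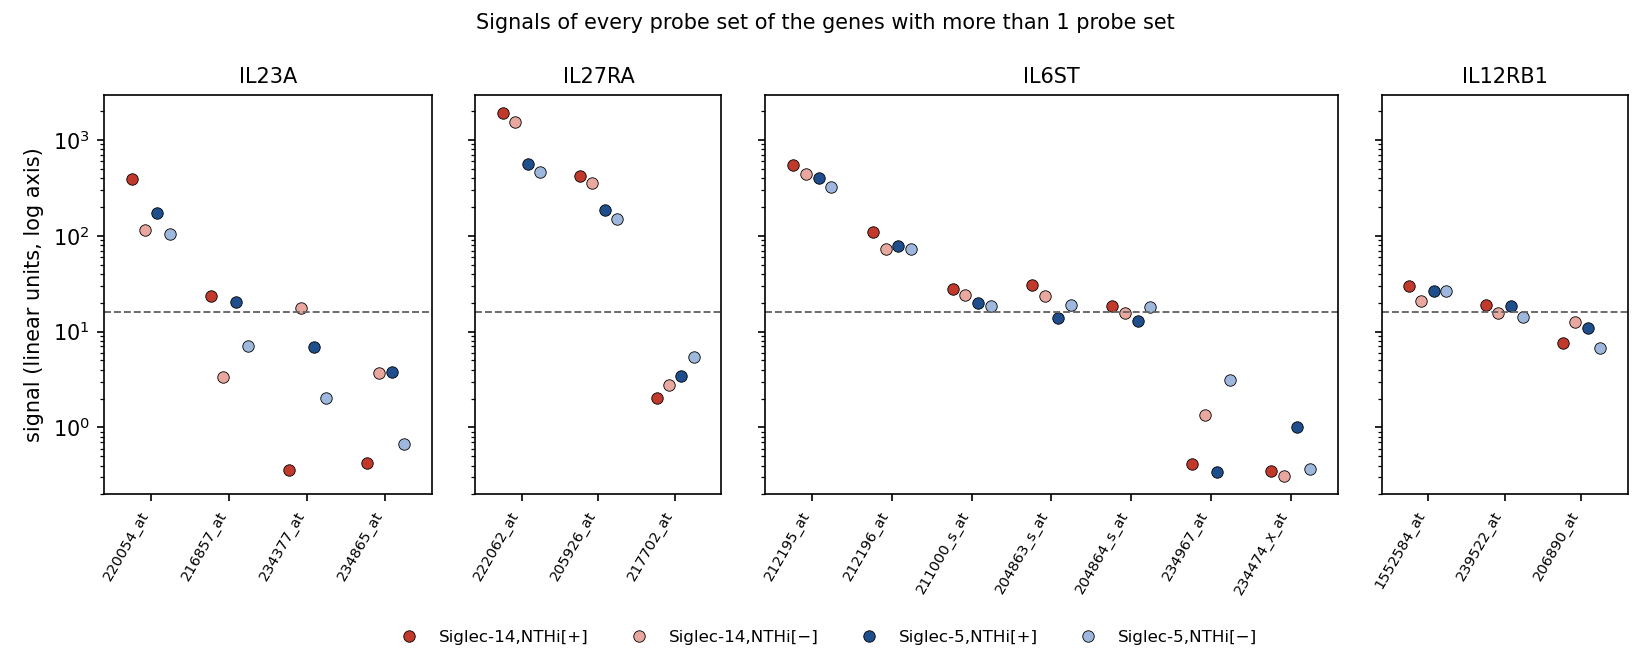
Signal (y axis, linear units on a log axis) of every probe set of IL23A, IL27RA, IL6ST and IL12RB1, with 1 point per array and the floor of 16.02 dashed. The 2 brighter IL27RA probe sets both place the Siglec-14/THP-1 arrays above the Siglec-5/THP-1 arrays, and only the main IL23A probe set lies above the floor on all 4 arrays.

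At the study's threshold of 3-fold, NTHi set apart 2 of the 8 genes in Siglec-14/THP-1, EBI3 and IL23A, both higher. Over all genes measured in that comparison, 0.189% were at least 3-fold higher and 0.0681% at least 3-fold lower. In Siglec-5/THP-1, EBI3 alone was at least 3-fold higher with NTHi and 0 of the 8 were lower, where 0.261% of all genes were higher and 0.0384% lower. Between the stimulated lines, 2 of the 8, EBI3 and IL27RA, were at least 3-fold higher in Siglec-14/THP-1 and 0 lower, against 1.63% and 0.0382% of all genes. Between the nonstimulated lines the same 2 genes were higher and 0 lower, against 1.21% and 0.113% of all genes. The genes below the floor in a pair have no ratio: IL27 in every comparison, IL12A with NTHi in Siglec-14/THP-1 and between the stimulated lines, and IL12B between the nonstimulated lines. The median log2 NTHi ratio was 0.54 over the 6 family genes with a ratio in Siglec-14/THP-1, where all genes had 0.08, and 0.27 over 7 in Siglec-5/THP-1, where all genes had -0.11. For Siglec-14/THP-1 over Siglec-5/THP-1 the medians were 0.87 with NTHi (6 genes, all genes 0.06) and 0.30 without (6 genes, all genes -0.12). A gene that reached the floor only on its higher array had to differ, so these medians describe the genes and support no test.

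**Figure D3:**
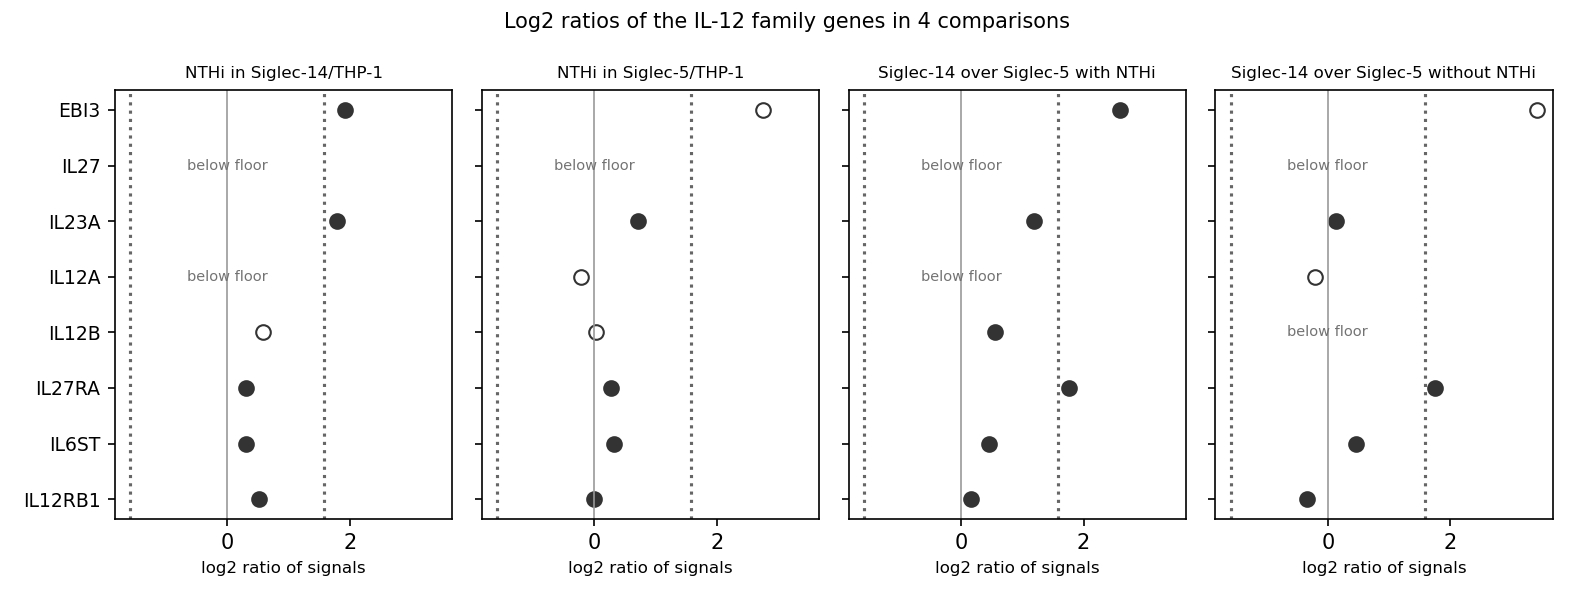
Log2 ratio of signals (x axis) of the 8 genes (rows) in each of the 4 comparisons, with signals below the floor raised to it. Filled points have both signals at or above the floor, open points are bounds, and dotted lines mark 3-fold, which EBI3 passes in all 4 panels, IL27RA in the panels between the lines and IL23A in the panel of NTHi in Siglec-14/THP-1.

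All 4 arrays together allow 1 model, a limma fit that adds a term for the line to a term for NTHi, that tests the mean NTHi difference over both lines and the mean line difference over both conditions. A gene can pass when only 1 line or 1 condition shows the difference. The fit says nothing on whether the lines responded differently, and its errors come from the trend of variance with intensity over all probe sets. Of the 7 family genes that entered it, EBI3 and IL23A rose with NTHi and 0 fell (adjusted p under 0.05), where 0.990% of 13933 genes rose and 0.294% fell. For IL23A the log2 NTHi term was 1.26 with a standard error of 0.18 (adjusted p = 5.2e-10), a mean of the unequal ratios of the lines. For EBI3, with its signal in Siglec-5,NTHi[−] raised to the floor, the term was 2.34 (standard error 0.22, adjusted p = 3.2e-23). The study selected EBI3 on these same arrays, for NTHi and between the lines. Its p-values in either term therefore describe it and are no independent test. The terms of IL27RA, 0.28 (adjusted p = 0.84), and IL6ST, 0.31 (adjusted p = 0.76), did not pass with signals as deposited. That call turned with the scaling: IL27RA passed for NTHi under median scaling (adjusted p = 0.034), trimmed-mean scaling (0.0017) and quantile normalization (0.042), and IL6ST under trimmed-mean scaling (0.019).

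In the same fit, EBI3, IL27RA, IL23A and IL6ST were higher in Siglec-14/THP-1 and 0 of the 7 lower, where 6.24% of genes were higher and 4.95% lower. For IL27RA the log2 line term was 1.75 with a standard error of 0.15 (adjusted p = 1.8e-28) and 1.23 on its second probe set (adjusted p = 6.8e-12). It was 3.004 for EBI3 with the signal raised to the floor (adjusted p = 9.7e-40) and 0.66 for IL23A (adjusted p = 0.0036), whose nonstimulated arrays differed little. For IL6ST it was 0.46 (adjusted p = 0.040), and its second probe set did not pass (0.24, adjusted p = 0.62). These calls rest on the intensity trend: without it 0 of all 13933 genes passed in either term, the 7 included, and EBI3 had an unadjusted p of 0.031 for NTHi and 0.019 for the line. Over all genes, the signals as deposited gave 869 genes higher and 690 lower in Siglec-14/THP-1, and median scaling gave 1032 and 2203.

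The genes whose pattern over the 4 arrays was nearest to that of EBI3 were CCL20, IL4I1, SGK1, TNFRSF9 and ICAM1, by the Euclidean distance between centred log2 signals of 7860 genes, with signals below the floor raised to it. The signal of EBI3 in Siglec-5,NTHi[−] is such a value, so its distances and their order hold for that floor alone. CCL20, a chemokine, lay at a distance of 0.28 and the following 4 between 0.66 and 0.87. IL4I1, a secreted amino acid oxidase of antigen-presenting cells, had 742 in Siglec-14,NTHi[+] and 346 in Siglec-14,NTHi[−], and 212 in Siglec-5,NTHi[+] and 26.5 in Siglec-5,NTHi[−]. CCL20, TNFRSF9 and ICAM1 are, like EBI3, genes that the study selected here. Nearest to IL23A were TRIM36, OGFRL1, SOD2, WNT5A and TNFAIP2, at distances of 0.51 to 0.61. WNT5A, a secreted Wnt ligand, had 648 in Siglec-14,NTHi[+] and 260 in Siglec-14,NTHi[−], and 452 in Siglec-5,NTHi[+] and 290.1 in Siglec-5,NTHi[−].

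Of 13 transcription factors known to act at promoters of the family, 4 rose with NTHi in the shared fit and 0 fell, and these were the NF-κB subunit genes REL, RELB, NFKB1 and NFKB2 (0.990% of all genes rose and 0.294% fell). REL, whose product drives IL12B and IL23A in mouse cells, had 520.3 in Siglec-14,NTHi[+] and 254 in Siglec-14,NTHi[−], and 386 in Siglec-5,NTHi[+] and 233 in Siglec-5,NTHi[−]. RELB had 253 and 143 in Siglec-14,NTHi[+] and Siglec-14,NTHi[−], and 165 and 47.0 in Siglec-5,NTHi[+] and Siglec-5,NTHi[−]. RELB and NFKB2 were also higher in Siglec-14/THP-1 than in Siglec-5/THP-1, as was IRF1, and 0 of the 13 were lower (6.24% of all genes were higher and 4.95% lower). SPI1, which encodes PU.1, had signals between 41.7 and 51.8 and passed in neither term.

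Of the Janus kinases, STATs and SOCS proteins that carry or limit the signal of these receptors, 10 of 12 were matched to a probe set of their own. In the shared fit 0 of the 10 passed for NTHi, where 0.990% of all genes rose and 0.294% fell. At an unadjusted p under 0.05 there were 0 of the 10, against 937 of all 13933 genes. With shares that small, 0 of 10 says little about these genes. TYK2, the kinase bound to IL12RB1, was higher in Siglec-14/THP-1 at 1.78-fold with NTHi and 1.45-fold without. STAT4, the factor that IL-12 activates, was also higher, with 43.9 in Siglec-14,NTHi[+] and 39.5 in Siglec-14,NTHi[−], and 11.1 and 10.3, both below the floor, in Siglec-5,NTHi[+] and Siglec-5,NTHi[−]. It entered the fit only through the Siglec-14/THP-1 arrays, so the size of its line term rests on signals below the floor. None of the 10 was lower in the line term, where 6.24% of all genes were higher and 4.95% lower. The partner receptor chains IL12RB2 and IL23R stayed below the floor on all 4 arrays, with highest signals of 10.6 and 2.43.

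Among the cytokines and receptors that use gp130, 10 of 12 were matched and 7 entered the fit. For NTHi 0 of the 7 passed, where 0.990% of all genes rose and 0.294% fell. At an unadjusted p under 0.05 there were 2 of the 7, against 937 of all 13933 genes. These were CNTFR, with a log2 NTHi term of 1.63, and IL11, with -1.45. Both terms rest on Siglec-5/THP-1 signals below the floor, among them 5.80 for CNTFR in Siglec-5,NTHi[−], so this count is no result about the list. Of the 7, IL11 and LIF were higher in Siglec-14/THP-1 and 0 lower, against 6.24% and 4.95% of all genes. Both entered the fit only through the Siglec-14/THP-1 arrays, where they are high. The size of their line terms rests on signals below the floor, so these calls describe the 2 genes and are no support. IL11 had 79.5 in Siglec-14,NTHi[+] and 74.6 in Siglec-14,NTHi[−], and 1.37 and 10.9, both below the floor, in Siglec-5,NTHi[+] and Siglec-5,NTHi[−]. LIF had 50.9 and 28.3 in Siglec-14,NTHi[+] and Siglec-14,NTHi[−], and 2.16 and 5.72, also below the floor, in Siglec-5,NTHi[+] and Siglec-5,NTHi[−]. IL6 was below the floor on all 4 arrays, and IL6R had 742 to 1089 and passed in neither term. Of 10 genes known to respond to IL-27 or IL-12, 7 entered the fit. Of these 7, CXCL10 rose with NTHi and 0 fell, against 0.990% and 0.294% of all genes. CXCL10, GBP5 and IRF1 were higher in Siglec-14/THP-1 and 0 lower, against 6.24% and 4.95% of all genes. For CXCL10 the line term hides opposite orders, with 2035 in Siglec-14,NTHi[+] against 3220 in Siglec-5,NTHi[+], and 807 in Siglec-14,NTHi[−] against 63.8 in Siglec-5,NTHi[−]. TBX21, the T-bet factor, had 22.8 in Siglec-14,NTHi[+] at its highest, and IFNG and IL10 stayed below the floor.

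**Figure D4:**
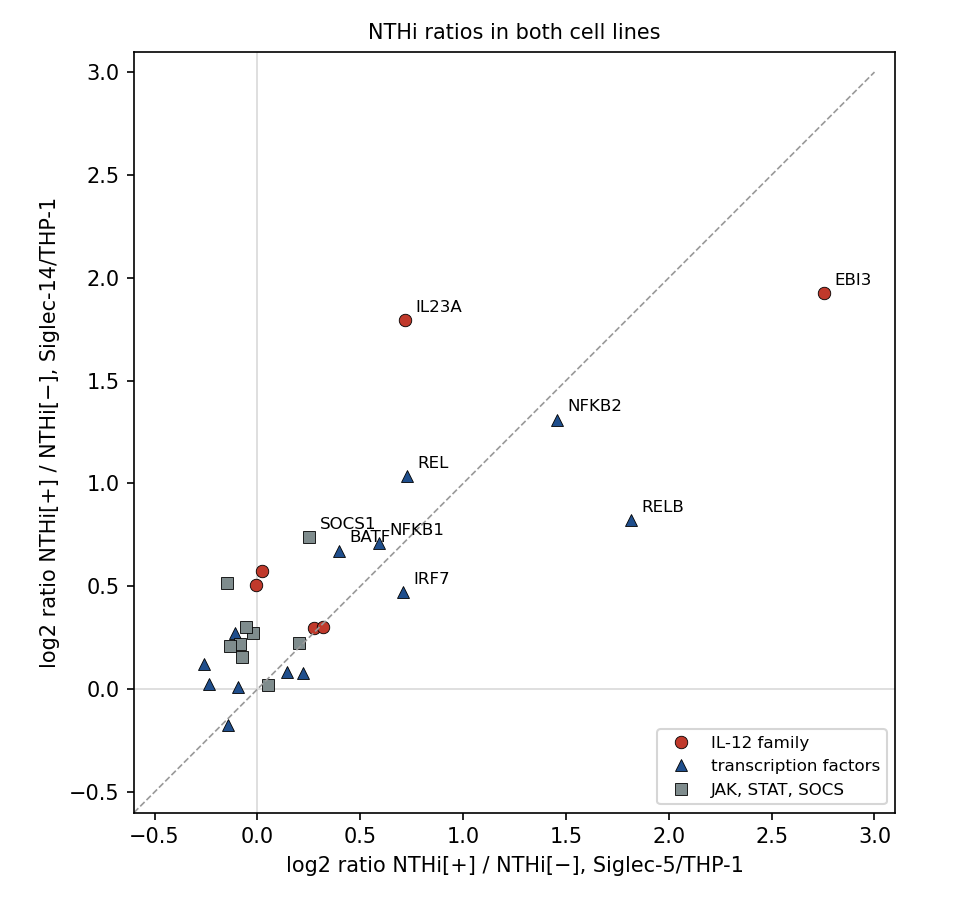
Log2 ratio of NTHi[+] to NTHi[−] in Siglec-5/THP-1 (x axis) and Siglec-14/THP-1 (y axis), 1 point per gene with a ratio in both lines and signals below the floor raised to it. IL23A lies above the dashed line of equal ratios (3.46-fold in Siglec-14/THP-1 and 1.65-fold in Siglec-5/THP-1), and EBI3 and RELB lie below it. EBI3 and NFKB2 are lower bounds on the x axis, where their nonstimulated signals were under the floor. IL12B is a lower bound on both axes.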

How the data were processed

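By the paper's methods, total RNA (250 ng) was labeled with the 3′ IVT Express kit, and the authors read the arrays out with GeneChip Operating Software (version not given in the sources used here) and standardized signals on the cumulative intensity of all probes. The deposited values are linear signal intensities, 1 for each probe set. Their sums differ between the arrays, so whether they carry that standardization is unknown. They were used without further scaling. Probe sets were named with the platform's annotation, and the 8 symbols equal current RefSeq symbols and probe sets naming more than 1 gene were left out. With 1 array per condition, the number of arrays limits the precision.

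Folds were set against a floor (the median of all signals), with 3-fold as in the study's screen. limma 3.58.1 (R 4.3.3) was fitted to log2 signals of 31981 probe sets whose highest signal reached the floor, controls left out, with additive terms for line and NTHi, eBayes with an intensity trend, 1 residual degree of freedom and Benjamini-Hochberg adjustment over all probe sets. On simulated data (31751 probe sets, NTHi term), 200 of 200 probe sets changed 4-fold were recovered by the fit, with 16 false calls, and 197 of 200 by the 3-fold rule in Siglec-14/THP-1, with 28 false calls. These counts describe simulated signals only. They cannot show whether errors taken from the intensity trend hold for the real arrays, and they give no support to the p-values. On the real arrays, 0 of 13933 genes passed in either term without that trend. Alternatives were other scalings, floors, thresholds, a pseudocount, other probe sets, no trend and 1 factor left out. The named genes were the 8 members, list genes at least 3-fold different or passing the fit, and the 5 nearest patterns to EBI3 and IL23A; list genes given below the floor or as not passing were named after their values were seen. Members, lists and motifs were chosen with earlier results of these data known. Python 3.11.15, pandas 2.3.3, numpy 2.4.6 and matplotlib 3.10.9 were used. Promoter sequences are RefSeq's, and 7 of the 8 genes matched.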

Additional observations from a re-analysis of the deposited data

Results flagged for a closer look

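For the main probe set of IL12RB1 the lines and the conditions pointed opposite ways, with all 4 signals above the floor. The log2 ratio of NTHi[+] to NTHi[−] was 0.51 in Siglec-14/THP-1 and -0.01 (-0.0059) in Siglec-5/THP-1, and the log2 ratio of Siglec-14/THP-1 to Siglec-5/THP-1 was 0.17 with NTHi and -0.34 without. The difference was not tested. A second probe set near the floor gave NTHi ratios of 0.24 in Siglec-14/THP-1 and 0.19 in Siglec-5/THP-1, the same direction and both bounds. The Siglec-5/THP-1 ratio changed sign under median scaling (0.09), trimmed-mean scaling (0.10) and quantile normalization (0.10). The ratio of 0.51 lies outside the SD of dim genes in that comparison, 0.42, and the other 3 lie within theirs, 0.45 to 0.63.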

How the results depend on the processing

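The counts of family genes at least 3-fold different did not change under median scaling, trimmed-mean scaling, quantile normalization or a pseudocount of 16. A floor at the 25th percentile made 4 genes differ with NTHi in Siglec-14/THP-1 (IL12B higher and IL27 lower in addition). Under a floor at the 75th percentile, 0 differed with NTHi in Siglec-5/THP-1 and 1 (IL27RA) between the nonstimulated lines, so the folds of EBI3 over its dim array are bounds set by the floor. With the median over a gene's probe sets, 1 differed with NTHi in Siglec-14/THP-1, 1 between the lines with NTHi and 1 between them without (EBI3 each time). A dim IL23A probe set, whose sequence was not checked, gave a log2 NTHi ratio of -0.13 in Siglec-14/THP-1, a bound set by the floor and opposite to the main probe set. In the shared fit, 4 genes rose with NTHi under trimmed-mean scaling (IL27RA and IL6ST in addition, adjusted p of 0.0017 and 0.019 from limma), and IL27RA also rose under median scaling (0.034) and quantile normalization (0.042). Without the intensity trend 0 passed for NTHi (3 at an unadjusted p under 0.05) and 0 for the line (2), and omitting the line term left 0 for NTHi (1). Over all 13933 genes these settings also left 0, with 749, 1659 and 289 at an unadjusted p under 0.05, in that order. With NTHi left out, IL23A lost its line call (adjusted p = 0.185). Over all genes, 138 rose and 41 fell with NTHi, against 295 and 67 under median scaling, 513 and 238 under trimmed-mean scaling and 228 and 104 under quantile normalization; for the line, 869 were higher and 690 lower, against 1879 and 1808 under trimmed-mean scaling and 1541 and 1577 under quantile normalization. The shift of an array pair under a scaling was at most 0.14 on the log2 scale (trimmed mean, nonstimulated lines), and quantile normalization moved single genes further, with IL27RA between those lines at 1.91 instead of 1.74. The causes were not tested. Signals near the floor limit IL27, IL12A, IL12B and IL12RB1.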
